A study of Caenorhabditis elegans with 2 samples.

Results

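The proteasome is the large protease that breaks down proteins tagged with ubiquitin, and its subunits in Caenorhabditis elegans are encoded by genes whose symbols begin with pas, pbs, rpt or rpn followed by a number. In the annotation used here 33 genes had such a symbol, among 46926 genes of all types and 19985 protein-coding genes. Of the 33, 14 encode the 20S core particle and 19 the 19S regulatory particle. The measurement was chromatin immunoprecipitation followed by sequencing (ChIP-seq) of the protein ZK546.5 in whole L4 larvae, the stage just before adulthood, of pooled sex. The strain, OP231 (unc-119(ed3) III; wgIs231), is a transgenic line that stably expresses ZK546.5 fused to a C-terminal GFP-FLAG tag. The 2 samples were biological replicates 1 and 2 of this single strain and stage, and no untagged strain, other stage or treatment was compared. Because whole animals were used, binding in a few cell types and weaker binding in many cannot be told apart.

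The core particle is a barrel of stacked rings. Alpha subunits (pas genes) form its outer rings and gate, and beta subunits (pbs genes) form the inner rings, some of which carry the proteolytic sites. The regulatory particle caps the barrel: its base holds a ring of ATPases (rpt genes) that unfold substrates, with scaffold and ubiquitin-receptor subunits (rpn-1, rpn-2, rpn-10 and rpn-13), and its lid (the other rpn genes) includes the deubiquitinase RPN-11. In worms, the transcription factor SKN-1 is known to raise expression of proteasome genes when the proteasome is impaired.

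Each gene was described by the peak summit nearest to an annotated 5′ end, up to 500 bp away. This was done in the pooled list (30000 peaks, both replicates together), in the reproducible list (304 peaks that the authors kept by the irreproducible discovery rate, IDR) and in the list of each replicate (30000 peaks each). Signal is the authors' value per peak, and rank 1 is the strongest peak of a list. Signal spanned 7.43 to 1668 in the pooled list, with a median of 10.3, and the reproducible list ended at 32.2. The pooled list is labelled as peaks with background, so its weak entries need not be binding sites. No source used here says how signal compares from list to list, and replicates were therefore set side by side by rank.

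Proteasome genes were reached by pooled and reproducible summits at larger shares than protein-coding genes in general, with 3 genes behind the reproducible count. A pooled summit lay within 500 bp of 23 of the 33 genes (69.7%), by 23 distinct peaks, against 36.1% of all protein-coding genes. A reproducible summit lay near 3 of the 33 (9.09%), namely pbs-1, pbs-2 and rpn-5, against 1.39% of all protein-coding genes. Of the genes with a pooled summit, it was 3 of 23 (13%) against 3.84%. The nearest pooled summit was among the 1000 strongest, a signal of 21.3 or more, at 9 of the 33 (27.3%) against 2.80% of protein-coding genes. At 2000 the count was 10 (30.3% against 4.29%), at 5000 it was 12 (36.4% against 8.49%), and at 10000 it was 14 (42.4% against 14.5%). These rank limits were chosen with the values known, and the protein-coding genes were not matched to the members for expression or spacing. No test was made, since genes are not replicates and the list was chosen with results in view.

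**Figure D1:**
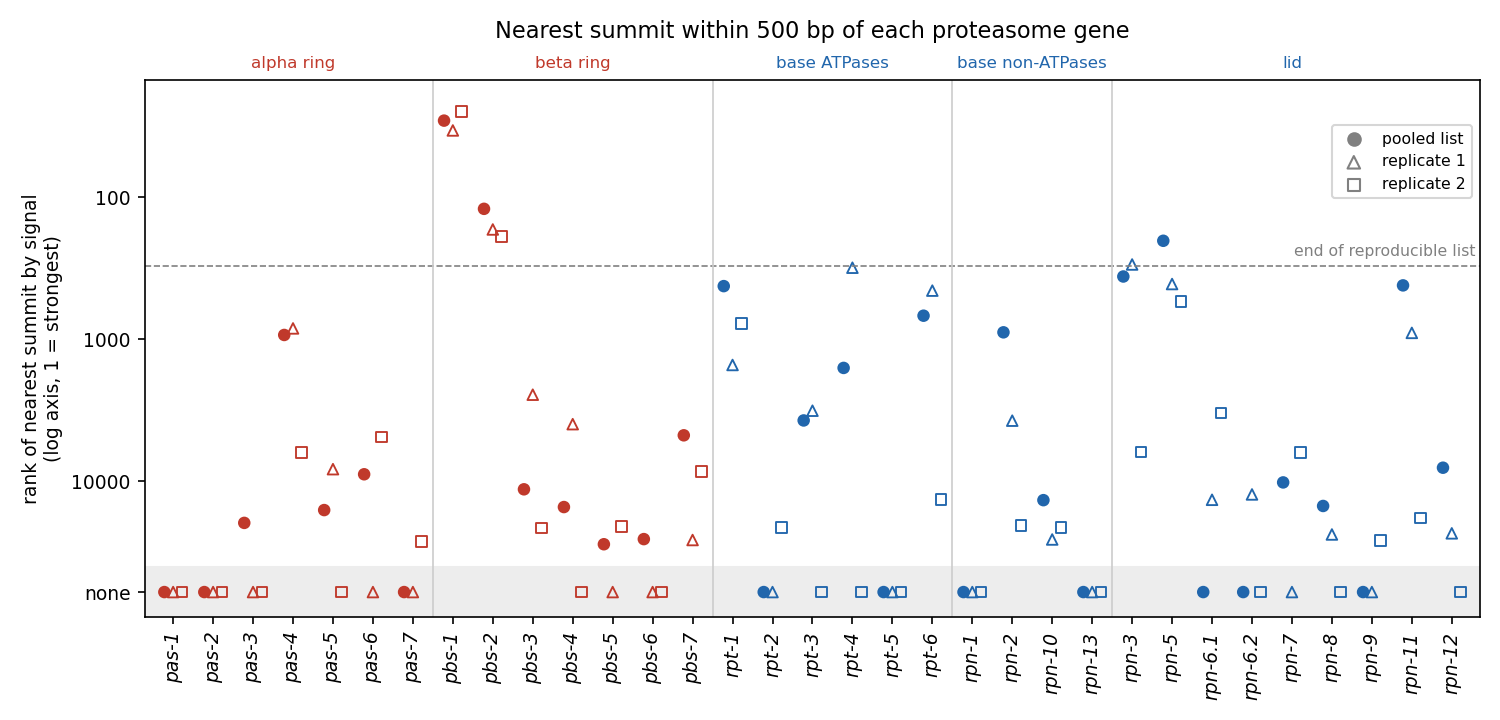
Rank of the nearest summit within 500 bp of each of the 33 genes (horizontal axis, by part of the particle), on a log axis with the strongest peaks at the top; filled circles are the pooled list, open triangles replicate 1 and open squares replicate 2, red for 20S and blue for 19S genes, and the grey band holds genes with no summit. The points of pbs-1, pbs-2 and rpn-5 lie close together, while those of most other genes are spread widely or include a list with no summit.

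pbs-1 (WBGene00003947), which encodes a beta-ring subunit of the core, had the strongest peak of all the proteasome genes. The pooled peak at IV:1709787-1710109 (ce11) had a signal of 321 and rank 29, with its summit 180 bp upstream of the 5′ end in intergenic sequence. In replicate 1 the nearest summit had a signal of 147 and rank 34, 219 bp upstream, and in replicate 2 a signal of 177 and rank 25, 180 bp upstream. Both replicates thus placed it near the top of their lists. The other protein-coding 5′ end nearest to the summit was that of K08D12.3, on the opposite strand at 340 bp. The 151 bases centred on the summit, IV:1709850-1710000 read on the strand of pbs-1, are shown because this is the strongest site at any proteasome gene. Here and below, sequence is from the RefSeq copy of WBcel235, 5′ to 3′, and capitals mark the searched words treated further on, here CCAAT and GTCAT (or its reverse complement ATGAC).
pbs-1: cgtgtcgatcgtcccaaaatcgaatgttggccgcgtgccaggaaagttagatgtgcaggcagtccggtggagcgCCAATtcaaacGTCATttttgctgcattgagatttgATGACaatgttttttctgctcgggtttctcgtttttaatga

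The other reproducible peak at a core gene was that of pbs-2 (WBGene00003948), also a beta-ring gene. It lay at I:12968433-12968776 with a signal of 57.5 and rank 121, and its summit was 325 bp upstream of the 5′ end of pbs-2. It was 341 bp from that of eif-6, which encodes an initiation factor and is read in the opposite direction, so the summit lay nearly midway between the genes. The nearest summit in replicate 1 had a signal of 27.3 and rank 169, and that in replicate 2 had 22.4 and rank 190. A separate and much stronger summit (signal 1016) lay 281 bp past the other end of the pbs-2 gene, outside the 500 bp allowed around its 5′ end. The alpha-ring gene pas-4 came next among the core genes. Its pooled peak had a signal of 21.7 and rank 933, just inside the 1000 strongest, with ranks of 839 in replicate 1 and 6231 in replicate 2. That summit was 194 bp upstream of pas-4, in an exon of C36B1.16, and nearer to the 5′ end of rpb-3, an RNA polymerase subunit gene, at 83 bp.

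The remaining 11 core genes had weak summits or none. Their strongest pooled summits were at pbs-7 (signal 14.7, rank 4739) and pas-6 (12.3, rank 8907). Those at pbs-3, pbs-4, pbs-5, pbs-6, pas-3 and pas-5 had signals of 7.79 to 11.4. Of these weak summits, those of pas-3 and pbs-6 were nearer to the 5′ end of a gene read the other way (use-1 at 24 bp and cids-1 at 118 bp). Neither had a match within 100 bp in the list of either replicate. No pooled summit lay within 500 bp of pas-1, pas-2 or pas-7. At pas-7 replicate 2 alone listed one, at rank 26510. By ring, 4 of 7 alpha genes and 7 of 7 beta genes had a pooled summit, against 36.1% of protein-coding genes. The 7 of 7 was not held in the replicates. In replicate 1, 2 alpha and 5 beta genes had a summit, and in replicate 2, 3 and 5.

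Among the 19S genes the single reproducible peak was that of rpn-5 (WBGene00004461), a lid subunit gene. It lay at II:4698243-4698586 with a signal of 38.9 and rank 203, and its summit was 12 bp downstream of a 5′ end, inside the 5′ UTR. The nearest summit in replicate 1 was 28 bp upstream, with a signal of 16.6 and rank 409, and that in replicate 2 was 41 bp downstream, with 16.4 and rank 545. Neither replicate alone placed it among its 304 strongest. The cohesin gene scc-1, read in the opposite direction, had its 5′ end 306 bp from the summit.

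Another 5 genes of the 19S particle had pooled summits between ranks 362 and 894, below the reproducible list. rpn-3, a lid gene, was the first below the limit: its peak at III:8447004-8447347 had a signal of 29.8 and rank 362, with rank 298 in replicate 1 and 6203 in replicate 2. Next was rpn-11, the gene of the lid deubiquitinase, at II:4044422-4044765 (27.8, rank 418), with ranks of 902 and 18098. Replicate 1 placed both far above replicate 2. At rpn-3 the nearest summits lay apart, 171 bp upstream in replicate 1 and 84 bp downstream in replicate 2. The replicate 2 summit within 100 bp of the pooled one ranked 6680. rpt-1, an ATPase gene, at V:11982548-11982891 (27.6, rank 423) went the other way, with ranks of 1517 and 775. The nearest summits of its replicates lay apart, at 143 and 398 bp upstream. In replicate 1 the summit within 100 bp of the pooled one ranked only 21330. rpt-6, also an ATPase gene, at III:12370057-12370400 (23.5, rank 683) had ranks of 455 and 13431. Replicate 2 had no summit within 100 bp of that pooled summit. The scaffold gene rpn-2 at III:6198757-6199100 (21.9, rank 894) had ranks of 3738 and 20399. There it was replicate 1 that had no summit within 100 bp of the pooled one. So none of the 5 was among the 1000 strongest of both replicates. The sequences shown are those of rpn-5 and these 5 genes, on the strand of each gene, cut where an annotated exon begins. They are shown beside that of pbs-1 as the strongest sites at 19S genes. The rpn-5 stretch is the sequence just upstream of the 5′ end and does not contain the summit, which lies in the 5′ UTR. Capitals mark TACGGT, the reverse complement of ACCGTA, at rpn-5. They mark ATCAT at rpn-3, rpt-6 and rpn-2, GTCAT (or ATGAC) at rpn-11 and rpn-2, and ATTGG, the reverse complement of CCAAT, at rpt-6. The stretch at rpt-1 held none.
rpn-5, II:4698428-4698503: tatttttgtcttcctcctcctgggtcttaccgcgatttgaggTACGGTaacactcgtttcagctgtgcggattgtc
rpn-3, III:8447101-8447251: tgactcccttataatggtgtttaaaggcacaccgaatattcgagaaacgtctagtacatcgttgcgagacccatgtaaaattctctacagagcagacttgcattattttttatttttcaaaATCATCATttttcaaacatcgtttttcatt
rpn-11, II:4044547-4044669: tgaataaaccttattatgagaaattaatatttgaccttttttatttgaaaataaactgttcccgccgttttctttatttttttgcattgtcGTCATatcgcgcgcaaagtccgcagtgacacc
rpt-1, V:11982645-11982795: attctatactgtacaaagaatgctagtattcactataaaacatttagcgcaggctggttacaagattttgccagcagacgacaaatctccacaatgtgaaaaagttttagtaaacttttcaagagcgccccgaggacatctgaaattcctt
rpt-6, III:12370154-12370304: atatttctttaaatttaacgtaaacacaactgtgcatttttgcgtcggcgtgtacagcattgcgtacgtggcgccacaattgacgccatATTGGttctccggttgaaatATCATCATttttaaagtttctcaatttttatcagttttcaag
rpn-2, III:6198854-6199004: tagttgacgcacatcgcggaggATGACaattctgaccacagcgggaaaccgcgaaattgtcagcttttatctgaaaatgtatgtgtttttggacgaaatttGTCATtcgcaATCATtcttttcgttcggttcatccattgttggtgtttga

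The other 13 genes of the 19S particle were led by 2 ATPase genes. rpt-4 had a pooled summit of signal 19.1 and rank 1591 in an intron of the gene, 220 bp upstream of an internal 5′ end and 25 bp from that of nfyc-1, which is read the other way. Replicate 1 ranked it 314, and replicate 2 had no summit within 500 bp. rpt-3 had a summit 68 bp upstream (15.6, rank 3725), again listed by replicate 1 (rank 3181) and not by replicate 2. The lid genes rpn-12, rpn-7 and rpn-8 and the ubiquitin-receptor gene rpn-10 had signals of 10.3 to 12.7. That of rpn-12 (12.7, rank 8008) was shared with rad-23, which encodes a carrier of ubiquitin-tagged proteins and starts 233 bp away on the other strand. In replicate 1 the nearest summit to rpn-12 ranked 23179, but another that matched the pooled summit within 100 bp ranked 417. The summit of rpn-10 lay 292 bp inside the gene, in an intron. No pooled summit lay within 500 bp of rpt-2, rpt-5, rpn-1, rpn-13, rpn-6.1, rpn-6.2 or rpn-9. Of these, rpn-6.1 was listed by both replicates (ranks 13461 and 3308), but by summits 829 bp apart. That of replicate 2 was 196 bp upstream of the gene, and that of replicate 1 was inside the gene, 428 bp upstream of an internal 5′ end. By part, 4 of 6 ATPase genes, 2 of 4 of the other base genes and 6 of 9 lid genes had a pooled summit. The share of protein-coding genes with one was 36.1%.

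The order of the 20S and 19S genes depended on the rank limit and on the list, with few genes behind each count. A reproducible summit lay near 2 of 14 core genes (14.3%) and 1 of 19 regulatory genes (5.26%), against 1.39% of protein-coding genes. The nearest pooled summit was among the 1000 strongest at 3 of 14 core genes (21.4%) and 6 of 19 regulatory genes (31.6%), against 2.80%. Among the 5000 strongest it was 4 (28.6%) and 8 (42.1%), against 8.49%. In replicate 1 the regulatory genes had the larger share among the 1000 strongest (26.3% against 21.4%) and the 5000 (42.1% against 35.7%). Among the 10000 the shares were close, at 42.9% of core and 42.1% of regulatory genes. Those of protein-coding genes in replicate 1 were 2.66%, 8.28% and 14.1% at these limits. In replicate 2 the core genes had the larger share at each of these limits: 14.3% against 10.5%, 21.4% against 15.8% and 35.7% against 26.3%. Those of protein-coding genes in replicate 2 were 2.10%, 7.37% and 13.3%. Any pooled summit was present at 11 of 14 (78.6%) and 12 of 19 (63.2%), against 36.1% of protein-coding genes. Over the genes with one, the median pooled signal was 11.4 for the 11 core genes and 20.5 for the 12 regulatory genes, beside 10.8 for protein-coding genes with a pooled summit. The order of these medians was the reverse in each replicate: 9.88 against 9.20 in replicate 1 and 9.06 against 7.29 in replicate 2. With genes that lack a summit counted as ranked below the list, the median pooled rank was 15523 for core and 10161 for regulatory genes, and more than 30000 for protein-coding genes. It was 27913 against 13461 in replicate 1 and 23884.5 against 21125 in replicate 2. By this median the regulatory genes ranked higher in each list, while by the median signal of the genes with a summit they were lower in both replicates. No test of 20S against 19S was made.

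**Figure D2:**
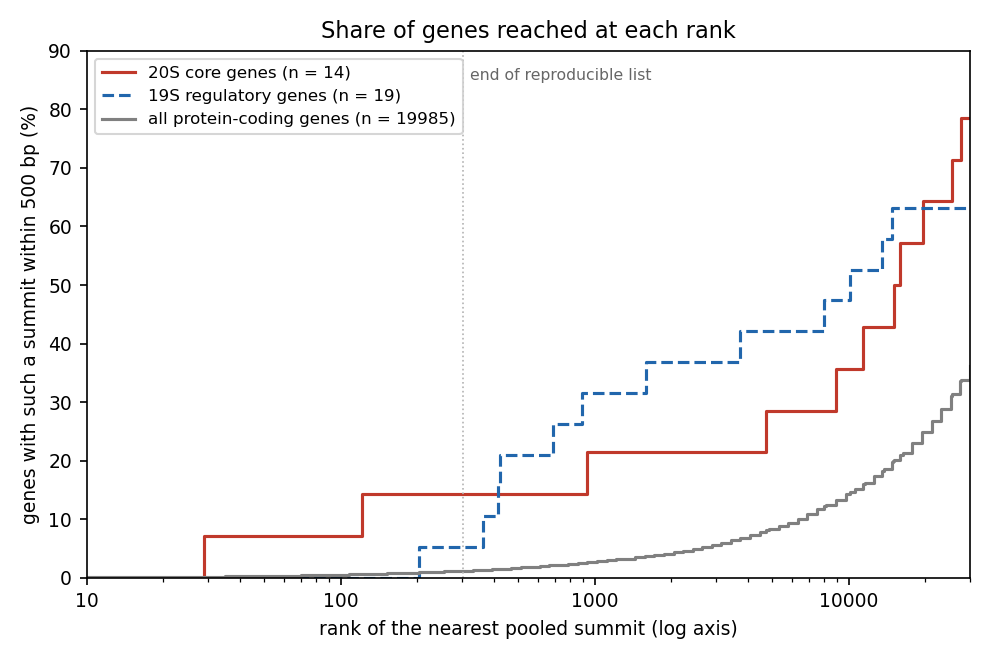
Share of genes (vertical axis, percent) whose nearest pooled summit within 500 bp is at or above a given rank (horizontal log axis), for 20S genes (red), 19S genes (dashed blue) and all protein-coding genes (grey). The 20S line leads up to the end of the reproducible list, the 19S line leads between the 1000 and 10000 strongest peaks, and the 20S line ends higher, at 78.6% against 63.2%.

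Summits lay mostly upstream of the nearest annotated 5′ end, at like distances for both particles. The summit was upstream of the 5′ end at 21 of the 23 genes (91.3%), against 59.2% of protein-coding genes with a pooled summit. It was upstream at 11 of 11 core genes and 10 of 12 regulatory genes, with rpn-5 and rpn-10 the exceptions. The count includes rpt-4, where the 5′ end was internal and the summit lay inside the gene. In replicate 1 it was upstream at 15 of 20 genes (75%, against 58.7%), with 6 of 7 core genes. In replicate 2 it was upstream at 16 of 19 (84.2%, against 57.1%). In the reproducible list the summit was upstream at 2 of 3 members (66.7%), against 92.1% of protein-coding genes near such a summit. The median distance of the pooled summit was 194 bp for core genes and 198.5 bp for regulatory genes, beside 208 bp for protein-coding genes. In replicate 1 the medians were 149 and 213 bp, and in replicate 2 they were 210 and 196 bp, so the order of the particles was not held. Intergenic sequence held 16 of the 23, while 2 fell in an intron, 2 in a 5′ UTR and 3 elsewhere in exons. The genes closest to the 500 bp limit were pbs-6 (471 bp, signal 8.14) and pas-5 (475 bp, 10.1) inside it. Just outside were rpt-5 (592 bp, 9.63) and rpt-2 (629 bp, 16.9). At the limit of the reproducible list, rpn-5 (38.9) was inside and rpn-3 (29.8) outside. The 30 genes with no reproducible summit nearby lay at least 2962 bp from one.

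**Figure D3:**
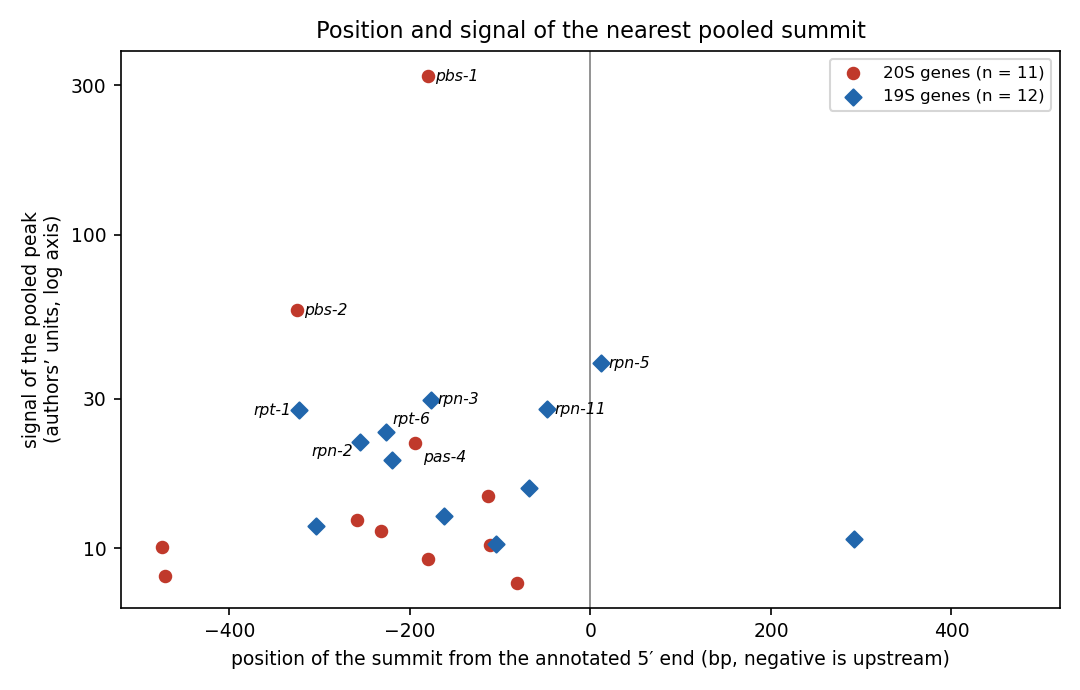
Distance of the nearest pooled summit from the annotated 5′ end (horizontal axis, bp, negative is upstream) and its signal (vertical log axis, authors' units) for the 11 core genes (red circles) and 12 regulatory genes (blue diamonds) that have one. Labelled are the 9 genes with a summit among the 1000 strongest; all points but rpn-5 and rpn-10 lie upstream, and pbs-1 stands above the rest.

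Many of these genes had a protein-coding neighbour close upstream in the annotation. Of the 33 genes, 20 had as their next protein-coding neighbour upstream a gene of the opposite strand within 1000 bp, against 3502 of all 19985 protein-coding genes. Another 8 had a gene of the same strand within 500 bp, as at genes inside operons, against 3618 of the 19985. The remaining 5 had neither. Genes that overlap a member were not counted as upstream neighbours. So rpt-4 is among the 5, though its pooled summit lay 25 bp from the 5′ end of the overlapping nfyc-1. Of the 20 divergent genes, 13 had a pooled summit (65%), against 43.8% of the 3502 protein-coding genes of that arrangement. It was among the 1000 strongest at 6 (30%, against 7.74%), and 3 were near a reproducible summit (15%, against 4.77%). Of the 8 that followed a gene of the same strand, 5 had a pooled summit (62.5%), against 38.1% of 3618 such genes. It was among the 1000 strongest at 1, rpn-11 (12.5%, against 2.32%), and 0 were near a reproducible summit, against 0.746%. Of the 5 with neither, 5 had a pooled summit, against 36.1% of all protein-coding genes. It was among the 1000 strongest at 2, against 2.80%, and 0 were near a reproducible summit, against 1.39%. Protein-coding genes had larger shares in the divergent than in the same-strand arrangement. Among the members the pooled shares of these arrangements were close (65% and 62.5%), and the divergent genes did not lead the 5 with neither in pooled summits. At 12 of the 23 genes another protein-coding 5′ end lay within 500 bp of the summit, against 17.1% of protein-coding genes with a pooled summit. The proteasome gene was the nearest protein-coding gene at 18 of 23. A summit between divergent starts cannot be assigned to either gene from these lists. Trans-splicing removes the first bases of many worm transcripts, and the true start may then be upstream of the annotated one.

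The replicates placed 3 genes alike at the top and differed on most others. A summit within 500 bp was listed for 20 of the 33 genes in replicate 1 (60.6%, against 36.0% of protein-coding genes) and for 19 in replicate 2 (57.6%, against 35.8%). Both lists had one at 13 genes, and at 5 genes (pas-1, pas-2, rpt-5, rpn-1 and rpn-13) neither they nor the pooled list did. Among the 1000 strongest, replicate 1 had 8 genes (24.2%, against 2.66%) and replicate 2 had 4 (12.1%, against 2.10%). The 3 genes among the 1000 strongest of both were pbs-1, pbs-2 and rpn-5, 9.09% of the 33 against 0.986% of protein-coding genes. The others in replicate 1 were rpn-3, rpt-4, rpt-6, pas-4 and rpn-11, and in replicate 2 rpt-1. Of the 23 pooled summits, 14 had a summit within 100 bp in replicate 1, 13 in replicate 2, 7 in both and 3 (pas-3, pbs-6 and rpn-8) in neither. The pooled list is made from the same reads as the replicates, so it is not a further measurement. The reproducible list keeps peaks that agree between these 2 replicates. The like placing of its 3 genes, pbs-1, pbs-2 and rpn-5, is therefore not separate support for it.

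**Figure D4:**
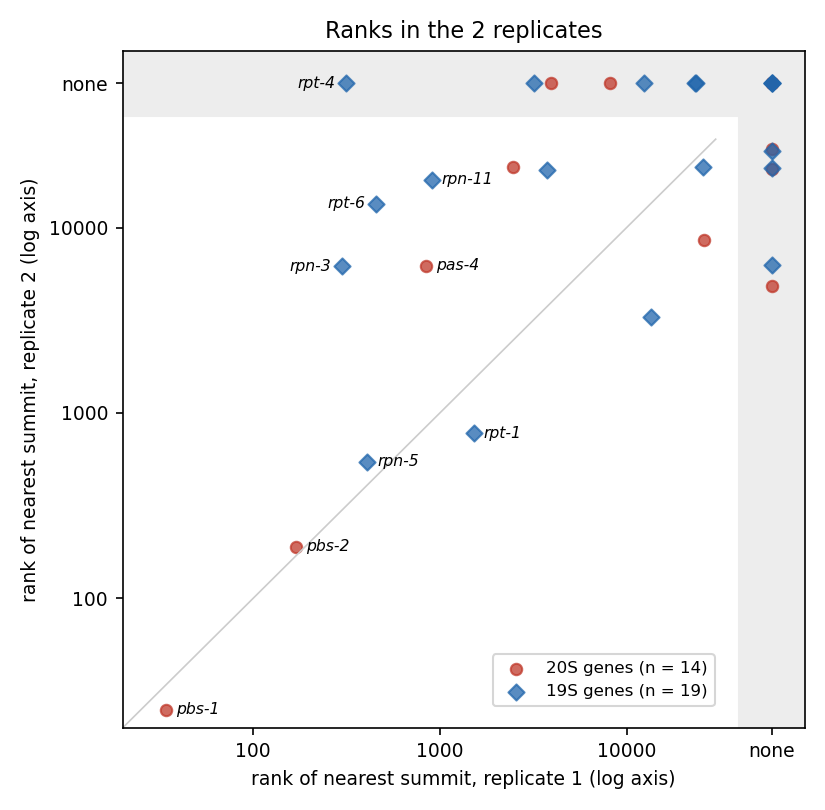
Rank of the nearest summit within 500 bp in replicate 1 (horizontal) against replicate 2 (vertical), both log axes, for 14 core genes (red circles) and 19 regulatory genes (blue diamonds), with grey bands for genes with no summit and a grey line for equal ranks. pbs-1, pbs-2 and rpn-5 lie near the line, and rpn-3, rpt-6, rpn-11 and pas-4 rank higher in replicate 1.

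Of 8 short words searched on both strands, those of the SKN-1 core were at most of the summits. The SKN-1 site ends in ATCAT or GTCAT, which share TCAT, and words could overlap in a window. In the 200 bp around the summit, ATCAT or GTCAT was present at 18 of the 23 genes (78.3%), against 52.4% of the 6674 pooled summits nearest to protein-coding genes. Of the 9 genes with a summit among the 1000 strongest, 7 had one of them, against 43.5% of the 446 summits of that strength nearest to protein-coding genes. rpn-5 and rpt-1 had neither. In the 300 bp around the outermost 5′ end (250 before and 50 after), 28 of 33 genes had one (84.8%), against 72.1% of the starts of 19973 protein-coding genes. Taken singly, ATCAT was in 57.6% of these member windows against 55.6%, and GTCAT in 57.6% against 39.5%. Words this short are common, and a match is not a site.

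ACCGTA was present in the summit windows of 6 genes (26.1%, against 6.47% of the 6674 summits): pas-4, pas-6, pbs-4, rpn-5, rpn-7 and rpn-10. GCGCAC was present in those of 4 (17.4%, against 5.53%): pas-4, pbs-4, pbs-7 and rpn-12. Among the 1000 strongest alone, ACCGTA was at 2 of 9 member summits (22.2%), near the 18.8% of the 446, and GCGCAC was at 1 of 9 (11.1%), below their 21.1%. The larger shares over all 23 summits were thus not held among these 9. The weaker member summits were not set against summits of like strength. Neither word was in the window of pbs-1 or pbs-2. In the start windows each was present at 4 of 33 genes (12.1%), against 8.11% for ACCGTA and 5.60% for GCGCAC among protein-coding genes. CCAAT was at 5 of the 23 summits (21.7%, against 33.8%) and CACGTG at 1, that of pas-5 (4.35%, against 3.93%). TGCGTCTC and GAGAGAGA were in 0 of the 23 windows, against 2.61% and 2.22%. The median GC content of the 23 windows was 35%, beside 35.5% for the 6674. The word ACCGTA was picked from earlier results on these data, as was the word GCGCAC and, likewise, TGCGTCTC. None of these shares was tested.

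Genes that work with the proteasome, and 6 genes of the related COP9 signalosome, were counted in the same way. The 25 partner genes were ones for ubiquitin, ubiquitin carriers, the unfoldase CDC-48 and its cofactors, and regulators of proteasome genes or function. Of them 17 had a pooled summit (68%, against 36.1% of protein-coding genes). It was among the 1000 strongest at 5 (20%, against 2.80%), and 2 were near a reproducible summit (8%, against 1.39%). Their median pooled rank was 8008, which is that of the summit rad-23 shares with the member rpn-12. The strongest was at cdc-48.1, which encodes that unfoldase: signal 202, rank 37, 162 bp upstream, with ranks of 47 and 38 in the replicates. The other gene of the unfoldase, cdc-48.2, had no pooled summit. Nor had the cofactor genes ufd-1, npl-4.1 and npl-4.2, while ufd-2, ufd-3 and ubxn-2 had one. The polyubiquitin gene ubq-1 had a signal of 27.0 (rank 455). The ubiquitin-ribosomal fusion gene ubq-2 had 35.1 (rank 248), with ranks of 426 and 1343. The gene of SKN-1 itself had a weak summit 81 bp upstream (15.1, rank 4218), with ranks of 6170 and 5912. ddi-1, the protease that processes SKN-1, had one at 10.1 (rank 15842), and png-1, which also acts on SKN-1, had none. The COP9 signalosome is a complex whose subunits resemble those of the lid. Of the 6 genes counted, csn-1 to csn-6, 1 had a pooled summit (csn-4, 16.9, rank 2716), 16.7% against 36.1% of protein-coding genes. A reproducible summit was near 0 of the 6, against 1.39%.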

How the data were processed

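ChIP-seq peak lists of 2 biological replicates, each given its replicate number by the labels, were analysed. Per the deposited text files, each replicate's list came from its own alignments and a control, the pooled list from both replicates' alignments, and the reproducible list from these 3 by IDR thresholding. No source used here names the aligner or peak caller. The signal value (column 7) and the summit offset (column 10) are the authors' deposited values, and the depth is unknown, so no interval for it is given. The lists used are in ce11. Lists in ce10 were not used, since no coordinate was moved between builds. Genes and 5′ ends came from Ensembl release 115 for WBcel235, the same assembly, and every peak ended within its chromosome lengths.

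Members were taken by symbol. For each, the nearest summit within 500 bp of any annotated 5′ end was found with Python 3.11.15 and pandas 2.3.3, by a procedure checked on summits planted at known offsets. Genes without one were given rank 30001 in medians. Members reaching the reproducible list, then the 10 strongest others, were named in full, and the rest by range. The members, lists, words and rank limits were chosen with earlier results of these data known. No significance test was made: there is 1 group, and genes are not replicates. Alternatives changed the distance, the 5′ ends, the strength limit, the gene credited and the replicate used.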

Additional observations from a re-analysis of the deposited data

How the results depend on the processing

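The genes near a reproducible summit numbered 2 to 3 under all alternatives but the one that required the 5′ end inside the peak, which left 1 in all, rpn-5, and 0 core genes. Within 200 bp, 12 of the 33 genes had a pooled summit and 1 core gene had a reproducible one. The median rank of either particle then passed below the list, at 30001, since fewer genes than not had a summit. Its median distances were 146.5 bp for core and 86.5 bp for regulatory genes, which the shorter limit sets. Within 1000 bp the regulatory median was 223.5 bp. With the stronger part of the reproducible list, 0 regulatory genes lay near it. With 1 replicate left out, from 0 to 1 regulatory genes were near the 304 strongest peaks of the other, rpn-3 in place of rpn-5 in replicate 1. Median ranks were then 23884.5 to 27913 for core and 13461 to 21125 for regulatory genes, and median distances 149 to 210 bp and 196 to 213 bp. A single replicate's list is built without the reads of the other, and beyond this the cause was not tested. With each gene's outermost 5′ end the counts were the same and the median rank of the regulatory genes was 13543. The strongest summit in place of the nearest gave the same medians. No paired analysis was possible because there is 1 group. Unknown depth limits how far the absence of a summit can be read.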
